A study of Mus musculus with 9 samples.

Results

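Genes that encode histone lysine methyltransferases and demethylases, the enzymes that add methyl groups to lysines of histone tails or cores and take them off again, were examined in hair cells (HCs) sorted from the inner ears of *Mir96* Dmdo mice. The genes were chosen by name, as all *Kdm*, *Kmt*, *Setd*, *Nsd*, *Prdm* and *Ehmt* genes with a number together with *Dot1l*, *Ezh1* and *Ezh2*. This rule found 59 of the 43808 genes counted, of which 51 were tested, since they reached 20 reads in 2 or 3 libraries of some genotype. Among the 59 were 18 protein-coding demethylase genes, 24 protein-coding methyltransferase genes outside the *Prdm* family, 14 *Prdm* genes, and 3 pseudogene or antisense entries (*Kdm4dl*, *Setd9-ps* and *Kdm6bos*). These groups also follow the gene names, and not every product is an established histone enzyme. The bulk RNA-seq data comprise 9 libraries of 1 mouse each, 3 from homozygous mutants (*Mir96* Dmdo/Dmdo), 3 from heterozygotes (*Mir96* +/Dmdo) and 3 from wild-type mice (*Mir96*+/+). All mice were P1 pups that carried *Atoh1/nGFP*, a nuclear green fluorescent reporter for *Atoh1*-expressing cells, and came from a cross of C3HeB/FeJ and C57BL6 stocks, so that the genetic background was mixed. HCs of the cochlea and of the vestibular organs were pooled, and were collected by the green reporter together with CD326, a protein on the surface of epithelial cells. The mutation is present in every cell of the mice, so that the comparison does not isolate an action within HCs. RNA integrity was lower in 1 wild-type and 1 homozygous mutant sample than in the rest, and the replicate numbers of these samples are not given in the sources used here.

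Histone lysine methylation marks active and silent chromatin by position. Methylation of H3K4 is known for promoters and enhancers in use, that of H3K36 and H3K79 for the bodies of transcribed genes, and that of H3K9, H3K27 and H4K20 for silent chromatin. Methyltransferases carry a SET domain, with DOT1L as the exception. Demethylases belong either to the LSD type or to the JmjC type, and PRDM proteins are zinc-finger factors of which only some are established enzymes.

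The Dmdo allele changes the seed of miR-96, the bases through which a microRNA pairs with its target transcripts. The mature sequences are shown 5′ to 3′ with the seed (bases 2 to 8) in capitals. The locus of both is chr6:30169506-30169528 on the minus strand of GRCm38.p6, the sequence of miR-96 is that of RefSeq, and the Dmdo form carries A7U, counted from 1 at the 5′ end of the microRNA.
miR-96: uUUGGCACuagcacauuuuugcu
Dmdo form: uUUGGCUCuagcacauuuuugcu

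Sites complementary to the miR-96 seed (GTGCCAA) and to the Dmdo seed (GAGCCAA) were searched on the sense strand of the annotated 3′ UTRs, and the motifs cannot overlap. A miR-96 site was found in 4 of the 50 tested genes with a 3′ UTR (8%), against 1276 of 12977 of all tested genes (9.83%). A Dmdo site was found in 6 of the 50 (12%), against 1348 of 12977 (10.4%). The median 3′ UTR had 1536 bases among the 50 genes and 1219 bases among all of them. Neither *Dot1l* nor *Kdm5c*, the genes with the lowest p-values below, held either motif in the UTR searched. All 4 miR-96 sites are printed with the match in capitals (GRCm38), beside the Dmdo sites of *Setd1b*, the gene with both motifs, and of *Nsd1*, the one gene with a Dmdo site whose fold change was above 0.
*Setd1b*, miR-96 site, chr5:123166007-123166031, plus strand: tccccgcGTGCCAAaggccgaggat
*Setd1b*, Dmdo site, chr5:123166710-123166738, plus strand: agaccctggggGAGCCAAgctggtcccag
*Kmt2a*, miR-96 site, chr9:44807333-44807361, minus strand: gtcttggggttGTGCCAAttaattaccaa
*Prdm11*, miR-96 site, chr2:92968387-92968415, minus strand: ttgtggccattGTGCCAAatgggtacctt
*Prdm16*, miR-96 site, chr4:154319210-154319238, minus strand: gcggtgttaatGTGCCAAatacccctgtg
*Nsd1*, Dmdo site, chr13:55316706-55316734, plus strand: tcttcctgctgGAGCCAAcccattttaat

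The total count per library was 18175317 to 30932531 in homozygous mutant, 29470207 to 34873964 in heterozygous and 19677015 to 28486252 in wild-type HCs. Of the 51 tested genes, 41 had 100 or more reads in every library. *Xist* was above the Y-linked *Ddx3y* in 0 of 3 homozygous mutant, 1 of 3 heterozygous (replicate 48) and 2 of 3 wild-type libraries (replicates 44 and 59), while the mouse numbers of all homozygous mutants, of heterozygous replicate 45 and of wild-type replicate 44 were 47 or lower. HC markers were high throughout, and their summed level over 10 genes was 8412 to 10410 CPM (read counts scaled to TMM-normalised library size) in homozygous mutant, 9820 to 14450 CPM in heterozygous and 10600 to 17050 CPM in wild-type HCs. The summed level of 5 glial genes was 25.4, 207 and 157 CPM in homozygous mutants 43, 46 and 47, 22.6 to 28.4 CPM in heterozygous and 19.9 to 32.0 CPM in wild-type HCs, and that of 7 mesenchymal genes was 129, 873 and 204 CPM in the homozygous mutants, 128 to 206 CPM in heterozygous and 134 to 269 CPM in wild-type HCs. Supporting-cell genes summed to 1534 to 1943 CPM in homozygous mutant, 1613 to 2913 CPM in heterozygous and 1734 to 3458 CPM in wild-type HCs, and neuronal genes to 92.5 to 135, 102 to 122 and 101 to 163 CPM in the same order. The lists of endothelial cells (up to 12.0 CPM), macrophages (up to 9.12 CPM) and melanocytes (up to 15.9 CPM) were near 0, and genes of red blood cells had 0 reads in all 9 libraries. Of the markers that passed the read filter edgeR called 1 between homozygous mutant and wild-type HCs, the HC gene *Espn* (-1.18 on the log2 scale, adjusted p = 0.0236). The paper, with DESeq2 at the same thresholds, lists *Otof*, *Myo7a* and *Gfi1* as downregulated beside *Espn*. In edgeR these were lower but not called, at -1.07, -0.88 and -0.69 (adjusted p of 0.125, 0.141 and 0.216).

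To determine which of these enzymes were mis-regulated, homozygous mutant HCs were compared with wild-type HCs in 1 model of all 9 libraries, with calls made where the change exceeded 1.5-fold and the false discovery rate was below 10%. *Dot1l* was the only gene of the 51 that edgeR called (1 lower, 1.96%, and 0 higher), against 0.915% called lower and 0.237% called higher among all 15184 genes tested. At an unadjusted p under 0.05, 8 of the 51 were lower (15.7%, against 8.19% of all genes) and 2 were higher (3.92%, against 4.92%). In 7 of the 51 genes every homozygous mutant library was below every wild-type library in CPM (13.7%, against 8.9% of all genes), namely *Dot1l*, *Kdm5c*, *Setd1b*, *Kdm3b*, *Ehmt2*, *Prdm10* and *Prdm11*. The opposite order held for 2 genes (3.92%, against 7.61% of all genes), *Nsd1* among them.

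*Dot1l* encodes the methyltransferase of H3K79, an enzyme tied to transcriptional elongation, and lies on chromosome 10 (80755206 to 80795461, plus strand, GRCm38). Its level was 61.2, 79.7 and 71.9 CPM in homozygous mutants 43, 46 and 47, 84.1, 186 and 112 CPM in heterozygotes 45, 48 and 51, and 118, 263 and 253 CPM in wild-type mice 44, 55 and 59. All homozygous mutant libraries were thus below all wild-type libraries, the heterozygotes overlapped with the wild-type, and wild-type replicate 44 was the lowest of its genotype. Homozygous mutants differed from wild-type by a log2 fold change of -1.58 with a standard error of 0.34 (adjusted p = 0.042, edgeR's quasi-likelihood test with Benjamini-Hochberg adjustment over all genes). The call was lost, with the direction kept, when any 1 of homozygous mutants 43, 46 and 47 or wild-type replicates 55 and 59 was left out (adjusted p of 0.135 to 0.243), with *Xist* above *Ddx3y* as a term (-1.46, adjusted p = 0.388), with mouse number 47 and lower as a term (-0.84, adjusted p = 0.593), and with a correction for GC content and exon length (-1.09, adjusted p = 0.172). Against wild-type replicate 44 alone, the wild-type library of mouse number 47 or lower, the difference in mean log2 CPM was -0.75, and against all wild-type libraries it was -1.5. The homozygous mutants also had the lower summed level of HC markers, although the markers differed. The log2 fold change was below 0 in 9 of the 10 markers (median -0.56), against 50.8% of all genes tested. It ran from *Espn* (-1.18) and *Otof* (-1.07) to *Lhx3* (-0.08) and *Pou4f3* (0.03). *Myo6* and *Atoh1* were at -0.10 and -0.11. In bulk samples fewer cells of a type and less RNA per cell cannot be told apart.

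*Kdm5c*, on the X chromosome (152233020 to 152274535, plus strand), encodes a demethylase of H3K4. Homozygous mutants 43, 46 and 47 had 83.8, 76.0 and 64.0 CPM, heterozygotes 45, 48 and 51 had 86.6, 125 and 96.5 CPM, and wild-type mice 44, 55 and 59 had 131, 158 and 167 CPM. Every homozygous mutant and every heterozygous library was below every wild-type library. The log2 fold change of homozygous mutants over wild-type was -1.03 (standard error 0.29, adjusted p = 0.121), which did not pass, although DESeq2 (adjusted p = 0.0208) and limma-voom (adjusted p = 0.0975) called it, as did edgeR without wild-type replicate 44 (adjusted p = 0.0540).

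**Figure D1:**
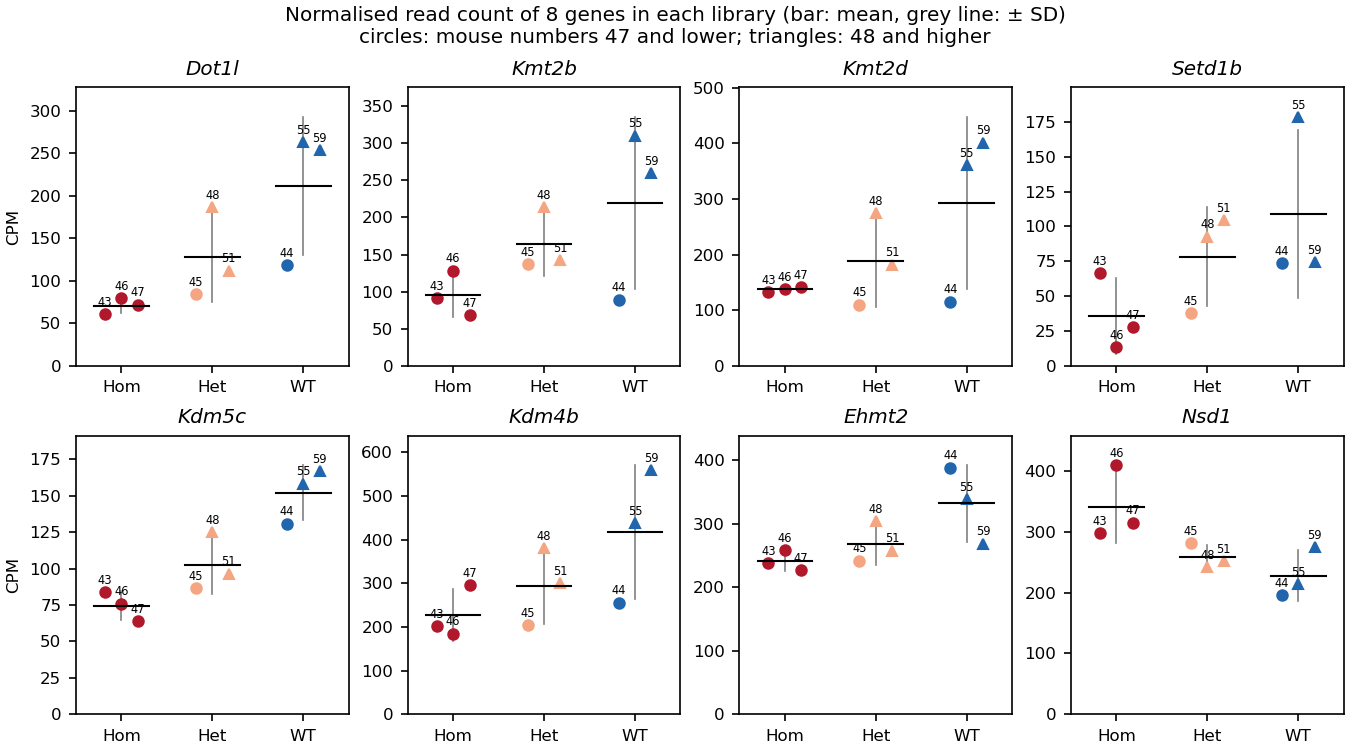
Level in CPM (linear axis from 0) of 8 histone methylation genes in each library of homozygous mutant, heterozygous and wild-type HCs. Points are libraries with their mouse numbers (circles 47 and lower, triangles higher), the black bar is the mean and the grey line ± 1 SD (n = 3). *Dot1l* lay between 61.2 and 79.7 CPM in homozygous mutants and between 118 and 263 CPM in wild-type HCs.

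The plot of CPM by library shows that a low wild-type replicate 44 was not limited to *Dot1l*, since it sat at the level of the homozygous mutants for several H3K4 methyltransferases. edgeR called none of the 8 tested H3K4 methyltransferase genes, DESeq2 called *Kmt2b* and *Setd1b* lower, and edgeR with no filter on low counts called these 2 and *Kmt2d* lower. Their median log2 fold change was -0.93, with 7 of 8 below 0 and 4 at an unadjusted p under 0.05. Over all genes tested the median was -0.02, with 50.8% below 0 and 13.1% at an unadjusted p under 0.05, and edgeR called 1.15%. The summed level of the 8 genes was 603, 641 and 638 CPM in homozygous mutants 43, 46 and 47, 660, 1110 and 949 CPM in heterozygotes 45, 48 and 51, and 600, 1368 and 1275 CPM in wild-type mice 44, 55 and 59. The homozygous mutants therefore stood well below wild-type replicates 55 and 59, and level with replicate 44.

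*Kmt2b* and *Kmt2d* encode catalytic subunits of MLL complexes, which act mainly at promoters and at enhancers. *Kmt2b* had 91.0, 128 and 68.2 CPM in homozygous mutants 43, 46 and 47, 137, 214 and 143 CPM in heterozygotes 45, 48 and 51, and 89.4, 310 and 259 CPM in wild-type mice 44, 55 and 59 (homozygous mutant over wild-type -1.20 on the log2 scale, standard error 0.37, adjusted p = 0.177). *Kmt2d* had 132, 139 and 142 CPM in homozygous mutants, 110, 275 and 182 CPM in heterozygotes, and 115, 361 and 401 CPM in wild-type mice, in the same order of mouse numbers (-1.09, standard error 0.39, adjusted p = 0.244). In both genes wild-type replicate 44 was within or below the range of the homozygous mutants, and with mouse number 47 and lower as a term the value of *Kmt2d* was 0.01.

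*Setd1a* and *Setd1b* encode the catalytic subunits of the SET1 complexes, which deposit most H3K4 trimethylation at promoters. *Setd1b* had 66.4, 13.5 and 27.8 CPM in homozygous mutants 43, 46 and 47, 37.9, 92.7 and 105 CPM in heterozygotes 45, 48 and 51, and 73.6, 178 and 74.5 CPM in wild-type mice 44, 55 and 59 (homozygous mutant over wild-type -1.60, standard error 0.54, adjusted p = 0.224). The homozygous mutant and wild-type groups did not overlap, but the gap between homozygous mutant 43 and wild-type replicate 44 was small. *Setd1a* had 20.9, 1.22 and 11.1 CPM in homozygous mutants, 14.6, 34.4 and 41.5 CPM in heterozygotes, and 18, 49.6 and 54.0 CPM in wild-type mice (-1.87, standard error 0.75, adjusted p = 0.289), so that wild-type replicate 44 lay within the homozygous mutant range. Homozygous mutant 46 had 22 reads of *Setd1a*, against 349 to 1489 in the other libraries. Of the exon bases of *Setd1a*, 51.8% are shared with a gene model on the same strand (*Gm49388*, median count 0), and reads there cannot be assigned to 1 gene with certainty. Of the other 4, *Kmt2a*, *Kmt2e* and *Setd7* had log2 fold changes of -0.33, -0.20 and -0.77, and *Kmt2c*, with 0.05, was the one above 0. The product of *Kmt2e* is not an established enzyme.

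The 4 methyltransferase genes of H3K36 had a median of 0.30 with 1 of 4 below 0 (50.8% of all genes tested), and edgeR called none (1.15% of all genes tested). *Nsd1*, which encodes a dimethyltransferase of H3K36 and lies on chromosome 13 (55209782 to 55318325, plus strand), had 298, 409 and 315 CPM in homozygous mutants 43, 46 and 47, 281, 242 and 252 CPM in heterozygotes 45, 48 and 51, and 196, 214 and 275 CPM in wild-type mice 44, 55 and 59. All homozygous mutant libraries were above all wild-type libraries, and the log2 fold change was 0.58 (standard error 0.25, adjusted p = 0.312). *Nsd3*, of the same family, had 71.6, 129 and 95.9 CPM in homozygous mutants, against 75.8, 82.0 and 72.0 CPM in wild-type mice (0.37, standard error 0.32, adjusted p = 0.691), and the groups overlapped.

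edgeR made no call among the methyltransferases of silent chromatin. *Ehmt2*, which encodes G9a, a dimethyltransferase of H3K9, had 238, 259 and 227 CPM in homozygous mutants 43, 46 and 47, 242, 304 and 258 CPM in heterozygotes 45, 48 and 51, and 389, 339 and 269 CPM in wild-type mice 44, 55 and 59. The homozygous mutants were all below the wild-type, by -0.46 on the log2 scale (standard error 0.24, adjusted p = 0.418), and the value was 0.09 with the correction for GC content and exon length. *Kmt5c*, whose product trimethylates H4K20, had 129, 67.4 and 75.4 CPM in homozygous mutants, against 121, 185 and 131 CPM in wild-type mice (-0.69, standard error 0.31, adjusted p = 0.351), and homozygous mutant 43 overlapped with the wild-type. *Kmt5b*, which encodes its paralogue, had 96.1, 124 and 99.6 CPM in homozygous mutants, against 86.2, 96.6 and 96.7 CPM in wild-type mice (0.20, standard error 0.29, adjusted p = 0.842).

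*Ezh1* and *Ezh2* encode the alternative catalytic subunits of PRC2, the H3K27 methyltransferase. *Ezh2* had 31.1, 35.8 and 23.7 CPM in homozygous mutants 43, 46 and 47, 6.24, 19.2 and 15.8 CPM in heterozygotes 45, 48 and 51, and 11.2, 30.5 and 22.8 CPM in wild-type mice 44, 55 and 59. Its log2 fold change of 0.49 had a standard error of 0.65 (adjusted p = 0.818), and the homozygous mutants overlapped with the wild-type. *Ezh1* was at -0.39 on the log2 scale (standard error 0.50). The methyltransferase genes not yet given were *Nsd2*, *Setd2*, *Ehmt1*, *Kmt5a*, *Setd3*, *Setd4*, *Setd5* and *Setd6*, and their log2 fold changes ran between that of *Setd4* (-0.70) and that of *Setd2* (0.23).

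Among the demethylases, edgeR called 0 of the 17 tested *Kdm* genes between homozygous mutant and wild-type HCs (DESeq2 and limma-voom called *Kdm5c*, and edgeR with no filter *Kdm5c* and *Kdm4b*), and 14 of the 17 had a log2 fold change below 0 (median -0.49). For the 24 tested methyltransferase genes outside the *Prdm* family 17 were below 0 (median -0.36), with *Dot1l* called. Of all genes tested 50.8% were below 0, and edgeR called 1.15%. The KDM4 genes, whose products act on H3K9 and H3K36, had a median of -0.68 over 3 tested genes. *Kdm4b* had 202, 184 and 296 CPM in homozygous mutants 43, 46 and 47, 204, 380 and 300 CPM in heterozygotes 45, 48 and 51, and 255, 438 and 559 CPM in wild-type mice 44, 55 and 59 (-0.88, standard error 0.30, adjusted p = 0.216). Homozygous mutant 47 was above wild-type replicate 44, so that the groups overlapped. *Kdm4a* had 169, 252 and 189 CPM in homozygous mutants, against 183, 214 and 242 CPM in wild-type mice (-0.07, standard error 0.26, adjusted p = 0.953), and its sign changed under 6 of the alternatives.

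*Kdm5a*, an autosomal relative of *Kdm5c*, had 123, 167 and 95.4 CPM in homozygous mutants 43, 46 and 47, against 115, 83.4 and 106 CPM in wild-type mice 44, 55 and 59 (0.34, standard error 0.31, adjusted p = 0.714). *Kdm1b*, an LSD-type demethylase of H3K4, had 28.0, 30.8 and 49.4 CPM in homozygous mutants, against 28.7, 30.1 and 19.7 CPM in wild-type mice (0.46, standard error 0.52, adjusted p = 0.777). Both genes overlapped between the groups. The medians of the other demethylase families were 0.19 for the LSD type, -0.53 for KDM2, -0.35 for KDM3, -0.08 for KDM5, -0.38 for KDM6 and -0.48 for *Kdm7a* and *Kdm8*. The other 10 demethylase genes ran between *Kdm4c* (-0.68) and *Kdm1a* (-0.08), and all were below 0. *Kdm6bos*, an RNA antisense to *Kdm6b* that shares 286 exon bases with it, was at 0, 0.11 and 0 CPM in homozygous mutants, at 0, 1.41 and 0.725 CPM in heterozygotes, and at 10.3, 0.072 and 0 CPM in wild-type mice, with 225 of its reads in wild-type replicate 44, 47 in heterozygote 48 and 26 in heterozygote 51.

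**Figure D2:**
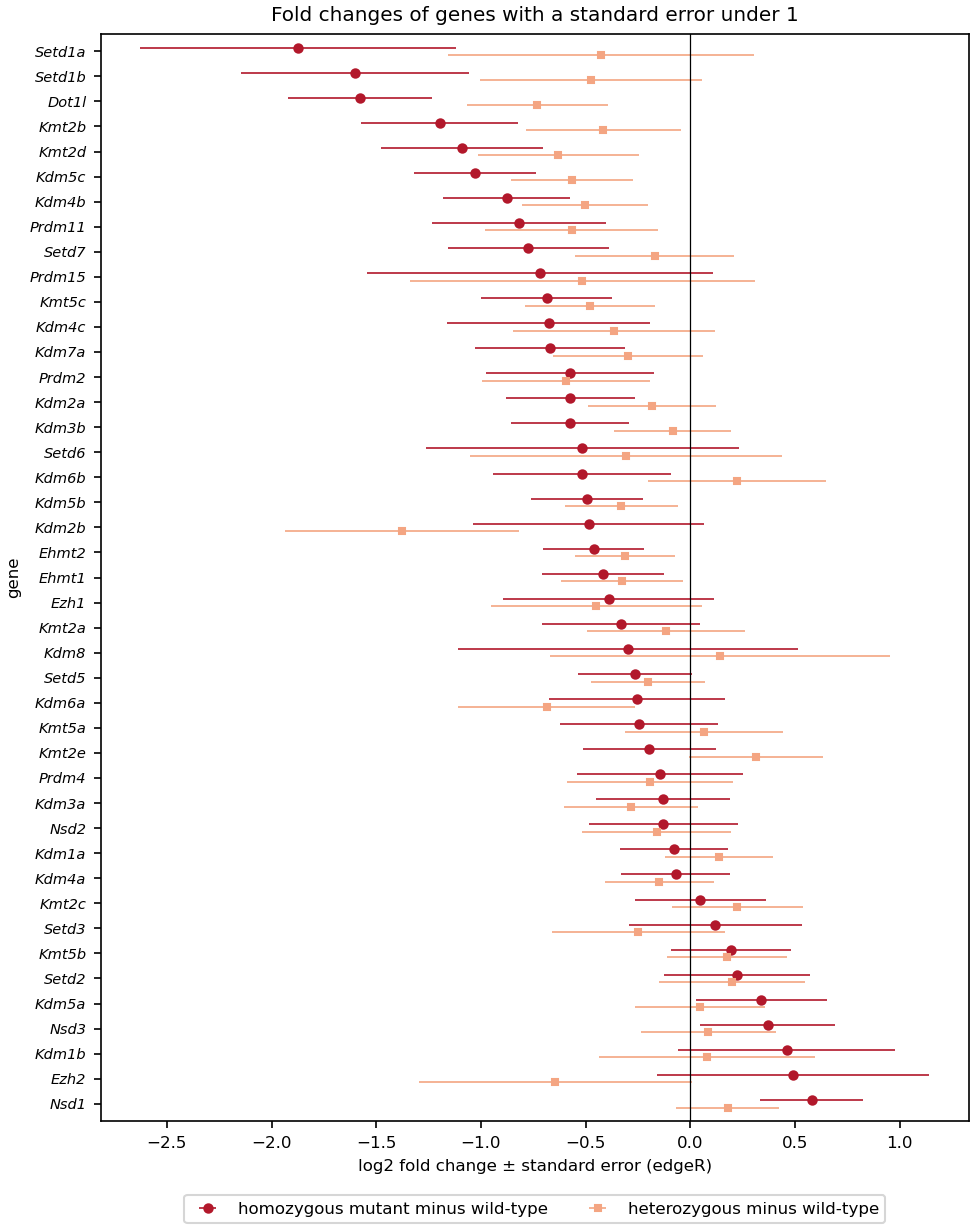
Log2 fold change over wild-type HCs with its standard error from edgeR, for homozygous mutant (circles) and heterozygous HCs (squares), for the 43 tested genes whose standard error was under 1 in the homozygous comparison. *Setd1a* (-1.87), *Setd1b* (-1.60) and *Dot1l* (-1.58) stand at the top and *Nsd1* (0.58) at the bottom.

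The plot of fold changes ranks the 43 genes measured with a standard error under 1 and leaves out 8. Per length, the 3 genes of highest level in wild-type HCs were *Kdm4b*, *Ehmt2* and *Kdm4a*. *Kdm4b* was at 46.4 ± 12 RPKM (CPM per kilobase of merged exons, SD, n = 3) in homozygous mutant, 60.2 ± 18 RPKM in heterozygous and 85.2 ± 31 RPKM in wild-type HCs. *Ehmt2* was at 44 ± 3.0, 48.8 ± 5.9 and 60.5 ± 11 RPKM, and *Kdm4a* at 35.1 ± 7.5, 33.2 ± 5.5 and 36.8 ± 5.1 RPKM, in the same order of genotypes. *Dot1l* was at 8.15 ± 1.1 RPKM in homozygous mutant, 14.6 ± 6.1 RPKM in heterozygous and 24.3 ± 9.3 RPKM in wild-type HCs.

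For the sex-linked genes, levels were read beside *Xist* and *Ddx3y*. *Xist* was at 3.96, 15.8 and 2.96 CPM in homozygous mutants 43, 46 and 47, at 6.44, 849 and 2.98 CPM in heterozygotes 45, 48 and 51, and at 793, 2.09 and 1317 CPM in wild-type mice 44, 55 and 59. *Kdm5d*, the Y-linked copy of *Kdm5c*, was at 16.2, 25.6 and 33.7 CPM in homozygous mutants, at 33.0, 0.18 and 40.8 CPM in heterozygotes, and at 0.733, 36.6 and 0.659 CPM in wild-type mice, in the same order. *Kdm5d* was low in exactly the 3 libraries of high *Xist*, and its fold change on the log2 scale, 0.99 (standard error 1.51, adjusted p = 0.853), was -1.17 with *Xist* above *Ddx3y* as a term.

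*Kdm5c* followed another order than *Kdm5d*. Among the 6 libraries of low *Xist*, it was at 83.8, 76.0 and 64.0 CPM in the homozygous mutants, at 86.6 and 96.5 CPM in heterozygotes 45 and 51, and at 158 CPM in wild-type replicate 55. Among the 3 of high *Xist* it was at 125 CPM in heterozygote 48 and at 131 and 167 CPM in wild-type replicates 44 and 59. With *Xist* above *Ddx3y* as a term the log2 fold change of *Kdm5c* was -0.91 (adjusted p = 0.715), and with mouse number 47 and lower as a term it was -0.80 (adjusted p = 0.643). *Kdm6a*, an X-linked demethylase of H3K27, was at 46.7, 89.7 and 60.8 CPM in homozygous mutants 43, 46 and 47, at 46.8, 59.6 and 39.8 CPM in heterozygotes 45, 48 and 51, and at 48.8, 49.8 and 137 CPM in wild-type mice 44, 55 and 59 (-0.25, standard error 0.42, adjusted p = 0.863). Wild-type replicate 59 was its one high library, and without it the value was 0.42. *Kdm5c* and *Kdm5d* are near copies, so that some of their reads may have been assigned to neither or to the other.

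**Figure D3:**
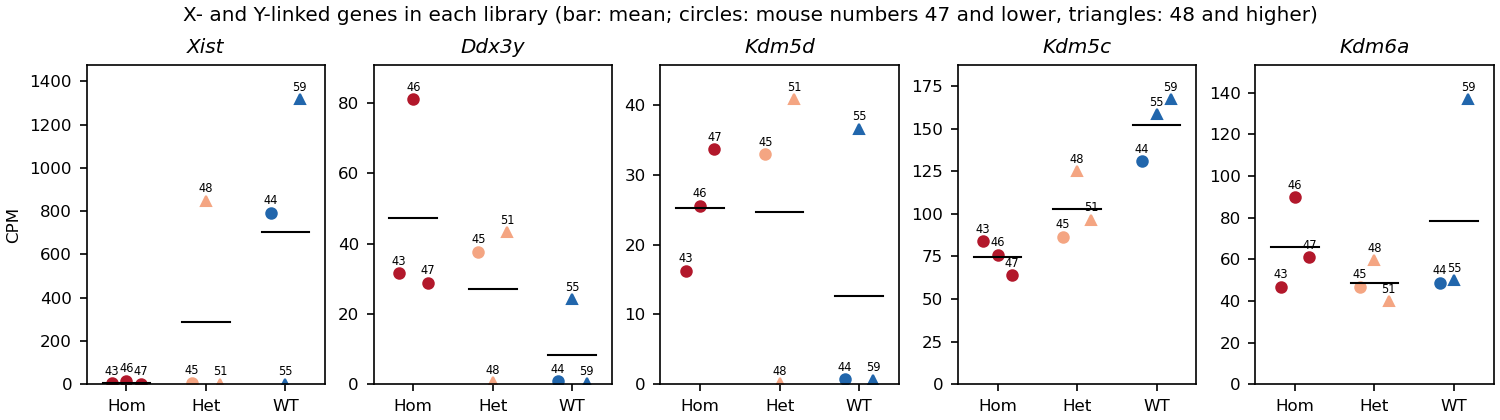
Level in CPM (linear axes from 0, a scale for each gene) of *Xist*, *Ddx3y*, *Kdm5d*, *Kdm5c* and *Kdm6a* in each library of homozygous mutant, heterozygous and wild-type HCs. Bars are means, circles mouse numbers 47 and lower, and triangles higher numbers. *Xist* is high in heterozygote 48 and wild-type 44 and 59, where *Kdm5d* is below 1 CPM, and *Kdm5c* is lowest in the 3 homozygous mutants.

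The plot of X- and Y-linked genes shows both orders side by side. Sex is not given in the labels, and with *Xist* high in no homozygous mutant its part in the genotype differences was not tested beyond the term above.

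The PRDM genes were mostly low. Of 14, 9 were tested, edgeR called none (1.15% of all genes tested), and 7 of 9 had a log2 fold change below 0 (median -0.58, with 50.8% of all genes tested below 0). *Prdm16*, which bears a miR-96 site, was at 14.8, 18.9 and 12.1 CPM in homozygous mutants 43, 46 and 47, at 8.10, 8.10 and 13.6 CPM in heterozygotes 45, 48 and 51, and at 0.275, 26.5 and 0.275 CPM in wild-type mice 44, 55 and 59, so that the wild-type libraries spanned all others. *Prdm12* was at -3.44 on the log2 scale with a standard error of 2.14, and *Prdm4* at -0.14 with one of 0.40.

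Of the 8 genes not tested, *Prdm1*, *Prdm6*, *Prdm13*, *Prdm14* and *Setd9-ps* had 0 reads in all 9 libraries, which allows up to 3 counts, or 0.086 to 0.165 CPM, per library (counting error only). The other 3 had reads in 3 libraries each. *Prdm8* had 265 reads in homozygous mutant 47, 1 in homozygous mutant 46 and 2 in wild-type replicate 44. *Kdm4d* had 2 in homozygous mutant 43, and 68 and 15 in wild-type replicates 55 and 44. *Kdm4dl* had 1 in homozygous mutant 43, 106 in heterozygote 48 and 1 in wild-type replicate 44.

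edgeR called none of the genes with a seed site in homozygous mutants over wild-type (1.15% of all genes tested), whereas DESeq2 called *Setd1b* lower (adjusted p = 0.0728). Of the 4 with a miR-96 site, *Kmt2a* was at -0.33, *Setd1b* at -1.60 and *Prdm11* at -0.82 on the log2 scale, and *Prdm16* was at 0.76 with a standard error of 1.26. Of the 6 with a Dmdo site, *Nsd1* (0.58) was above 0, and *Setd1b* (-1.60), *Kdm7a* (-0.67), *Kdm2a* (-0.57), *Ezh1* (-0.39) and *Setd5* (-0.26) were below it. *Setd1b*, the one gene with both motifs, was lower in every homozygous mutant library than in any wild-type library.

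Next it was asked whether the heterozygotes, which carry 1 Dmdo allele, stood between the other genotypes. Between heterozygous and wild-type HCs edgeR called 0 of the 51 genes and 0 of all 15184 (0%), and DESeq2 and limma-voom called 0 of the 51. At an unadjusted p under 0.05 there were 3 of the 51 (5.88%, against 4.52% of all genes), *Dot1l* and *Kdm2b* among them, and 34 of the 51 (66.7%, against 52.6%) were below 0. In heterozygotes over wild-type *Dot1l* was at -0.73 on the log2 scale (standard error 0.34) and *Kdm5c* at -0.57 (standard error 0.29), both with an adjusted p of 1. *Kdm2b*, a demethylase of H3K36 that is named after its values were seen, was at 21.3, 42.7 and 16 CPM in homozygous mutants 43, 46 and 47, at 12.3, 15.4 and 15.3 CPM in heterozygotes 45, 48 and 51, and at 37.4, 36.9 and 37.5 CPM in wild-type mice 44, 55 and 59. All 3 heterozygotes were below all other libraries for this gene (-1.38 over wild-type, standard error 0.56, adjusted p = 1). In 5 genes all heterozygotes were below all wild-type libraries (9.8%, against 5.38% of all genes), and in 1 they were above (1.96%, against 5.41%).

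Between homozygous mutant and heterozygous HCs edgeR called 0 of the 51 genes and 1 of all 15184 (0.00659%), DESeq2 and limma-voom called 0 of the 51, and 2 of the 51 (3.92%, against 6.78% of all genes) had an unadjusted p under 0.05. These were *Dot1l*, with a log2 fold change of -0.85, and *Kmt2b*, with -0.78. The heterozygous mean lay between the means of the other genotypes in 33 of the 51 genes (64.7%, against 46.8% of all genes tested).

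In a model with the number of Dmdo alleles, 2 of the 51 genes fell with each allele (3.92%) and 0 rose, against 1.34% that fell and 0.435% that rose among all genes tested (1.78% in all). *Dot1l* changed by -0.79 per allele on the log2 scale (standard error 0.16, adjusted p = 0.025) and *Kdm5c* by -0.51 (standard error 0.14, adjusted p = 0.080). Both calls were lost with *Xist* above *Ddx3y*, mouse number 47 and lower, or GC content and exon length in the model, and without homozygous mutant 43 or 47 or wild-type replicate 55 or 59. The call of *Kdm5c* was also lost without homozygous mutant 46 or heterozygote 45 or 51, and with scaling to library totals.

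The 51 genes as a list were shifted in 1 direction. In homozygous mutants over wild-type 39 of the 51 had a log2 fold change below 0 (76.5%, against 50.8% of all genes tested), and their median was -0.42, against -0.02. All genes of the list took 0.396% to 0.467% of the reads in homozygous mutant, 0.429% to 0.513% in heterozygous and 0.406% to 0.594% in wild-type libraries. The wild-type range held that of the homozygous mutants almost whole, as replicate 44 was at 0.406% and replicates 55 and 59 were at 0.573% and 0.594%.

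The choice of wild-type library moved the list. The mean log2 CPM of the homozygous mutants was set against wild-type replicate 44 alone, and the median difference of the 51 genes was then -0.02, with 26 of 51 below 0 (all genes -0.08, 53.5% below 0). Against all 3 wild-type libraries it was -0.41 on the same scale, with 39 of 51 below 0 (all genes -0.0022, 50.1% below 0). Between heterozygotes 48 and 51 and wild-type replicates 55 and 59, the libraries of higher mouse numbers, it was -0.23, with 36 of 51 below 0 (all genes 0.04, 47.3% below 0). These values have no test. *Setd1b*, *Kdm5c* and *Dot1l* were lower in the homozygous mutants against replicate 44 as well, at -1.33, -0.82 and -0.75 and with each homozygous mutant below it, whereas *Kmt2b* was at 0.05 and *Kmt2d* at 0.25.

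**Figure D4:**
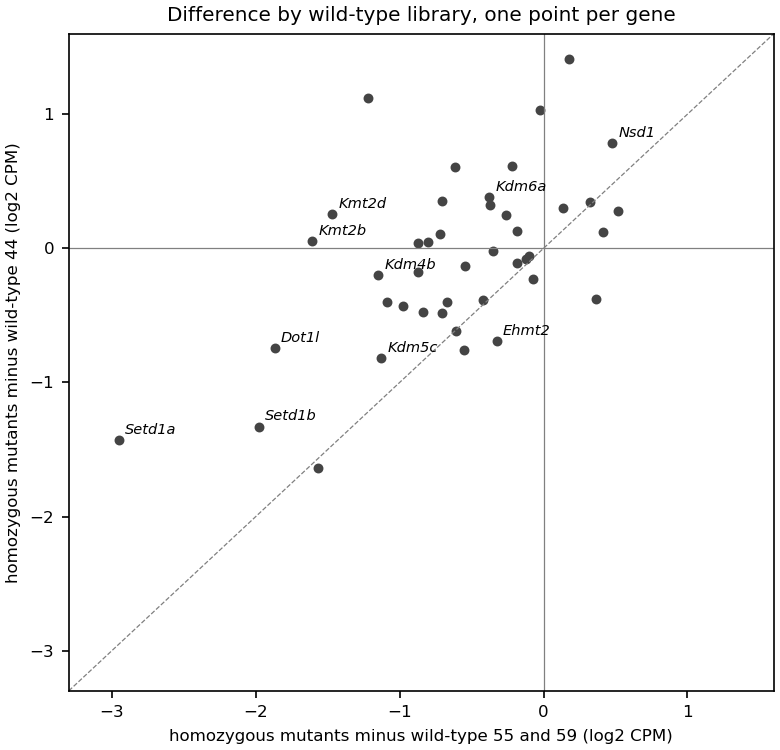
Difference in mean log2 CPM of the 3 homozygous mutants, each point 1 of the 43 genes with a standard error under 1, minus the mean of wild-type replicates 55 and 59 (x axis) and minus wild-type replicate 44 (y axis). The dashed line marks equal differences. *Kmt2b* and *Kmt2d* lie near 0 on the y axis, at 0.05 and 0.25, and at -1.61 and -1.47 on the x axis.

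The plot by wild-type library separates genes low against both replicate 44 and the mean of 55 and 59 from those low against that mean alone. Fold changes also went with base composition. Spearman's rho between GC content of the longest coding transcript and log2 fold change of homozygous mutants over wild-type was -0.56 over the 51 genes and -0.19 over 15182 genes, as a description across genes that share the same 9 libraries. All 12 genes of the list above 55% GC were below 0, and so were 4 of the 9 at or below 45% GC. For the 11 genes of 55% to 60% GC the median was -1.09, against -0.26 for all 2999 genes of that range, and for the 8 genes of 40% to 45% GC it was 0.28, against 0.21. *Dot1l* had 57.5% GC, *Kmt2b* 59.1%, *Kmt2d* 58.4%, *Setd1b* 59% and *Nsd1* 46.5%. The genes of the list were also long, with a median exon length of 8705 bases against 4102 among all genes. With a correction for GC content and exon length in each library the median of the 51 genes was -0.24, 35 were below 0 and 0 were called. Calls over all genes also fell with this correction, as given in the closing section. The median and share below 0 of all genes with it are not given here, so that these values do not set the list against other genes.

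**Figure D5:**
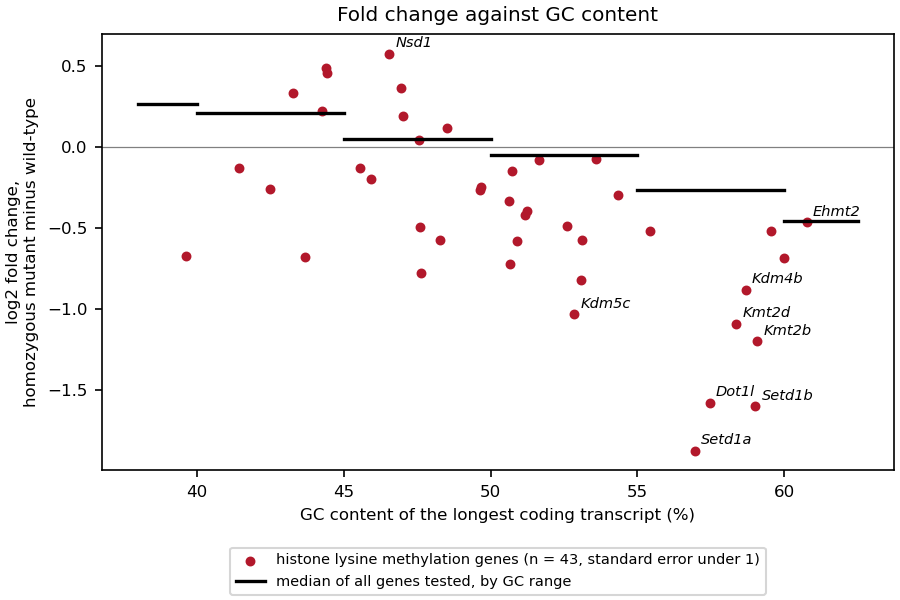
Log2 fold change of homozygous mutant over wild-type HCs against GC content of the longest coding transcript (%), for the 43 genes of the list with a standard error under 1 (points). Black lines are medians of all genes tested by GC range, as low as -0.46 above 60% GC. Every point above 55% GC lies below 0, and *Dot1l* is at 57.5% GC and -1.58.

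The plot of fold change against GC content shows that this slope was present outside the list as well. Partners of these enzymes and other chromatin genes were read in the same model from lists, and edgeR called none of the 81 genes tested in them between homozygous mutant and wild-type HCs. The 12 tested partners of DOT1L and elongation factors had a median of -0.52. Among them *Mllt6*, which the paper lists as downregulated, was at -0.88 (standard error 0.29, adjusted p = 0.205). In the other direction *Mllt3*, which encodes the DOT1L-binding reader AF9, was at 0.90 (standard error 0.42, adjusted p = 0.363). The 13 tested COMPASS partners, shared subunits of the H3K4 methyltransferase complexes, had a median of -0.11, and the 9 PRC2 partners one of -0.10, with *Suz12* at 0.87 (standard error 0.32, adjusted p = 0.250). The 13 tested histone acetyltransferases had a median of -0.20, the 16 deacetylases one of 0.02, and 18 other SET-domain and JmjC genes outside the name rule one of 0.11. Of the 16 deacetylases 8 were below 0, and *Hdac5* had the smallest p, at -0.86 (standard error 0.25, adjusted p = 0.129). In the trend with allele number edgeR called 1 deacetylase lower and 0 genes of the other partner lists, against 1.78% of all genes tested. Between homozygous mutants and wild-type the median of all genes tested was -0.02, and 50.8% were below 0.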

How the data were processed

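RNA of sorted P1 HCs was sequenced by the authors as 75 base pair paired-end reads, aligned to GRCm38 with HISAT2 version 2.0.4 after FastQC, and counted per gene with HTSeq. The version and strand setting of HTSeq are not given in the sources used here, so that reads of overlapping antisense genes may be mixed. The authors deposited raw read counts, with no normalization, for 43808 genes in each of 9 libraries. Libraries were grouped by their labels. The p-values set a difference between genotypes against the spread between mice of the same genotype (3 each). That spread was estimated from all 9 libraries, with the genes tested informing each other.

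Genes that reached 20 reads in 2 or 3 libraries of a genotype (15184) were tested over the whole table with the quasi-likelihood test of edgeR 4.0.16 (robust, TMM, 1 fit of all 9 libraries, R 4.3.3), with calls at a Benjamini-Hochberg false discovery rate under 10% and more than 1.5-fold change. The trend with allele number had no fold threshold. CPM used TMM library sizes, and log2 CPM a prior count of 2. Adjusted p-values are edgeR's unless another tool is named. The code was tested on simulated data.

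Genes named in full were *Dot1l*, *Kdm5c*, every called gene, the 8 of smallest p in each direction, those on X or Y and the 3 of highest level per length. The genes, role groups, partner lists and marker lists were chosen with earlier results of these data known. Lists are described by counts and medians, and values of 1 gene are not reported here. GC content, exon length and 3′ UTRs (the longest per gene) came from GENCODE vM21, and the miR-96 sequence from RefSeq (GRCm38.p6).

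Alternatives were DESeq2 1.42.0, limma-voom (limma 3.58.1) with quality weights, glmTreat, size factors of DESeq2's kind, library totals, no filter, filterByExpr, only the compared genotypes, terms for *Xist* above *Ddx3y* and for mouse number 47 and lower, loess offsets for GC content and exon length, leaving out wild-type 59 with homozygous mutant 46, and leaving out each library.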

Additional observations from a re-analysis of the deposited data

How the results depend on the processing

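The count of the 51 genes called between homozygous mutant and wild-type HCs was 1 (*Dot1l*). It was 5 with DESeq2, 2 with limma-voom, 6 with no filter on low counts, and 0 with glmTreat, with *Xist* above *Ddx3y* or mouse number 47 and lower as a term, with offsets for GC content and exon length, and when homozygous mutant 46 and wild-type 59 were both left out. With 1 library left out it was 0 to 5. It was 0 without homozygous mutant 43, 46 or 47 or wild-type 55 or 59, and 5 without wild-type 44 (*Dot1l*, *Kdm4b*, *Kdm5c*, *Kmt2b* and *Kmt2d*). The trend count of 2 was 7 with DESeq2, 5 with limma-voom, 4 with no filter and 1 with library totals. It was 0 with the same terms and offsets and without both libraries, and 0 to 5 with 1 library left out. The trend called 1.78% of all genes with edgeR. Shares of all genes are not given here for the other trend counts or for single libraries left out. Those counts therefore do not set the list against other genes. No gene of the 51 was called in the heterozygous contrasts under any alternative run. Over all genes, the calls between homozygous mutants and wild-type numbered 175 with edgeR, 966 with DESeq2, 562 with no filter, 320 with limma-voom, 56 with the GC and length offsets, 25 with the mouse number term and 12 with the *Xist* term. The causes of these shifts were not tested.

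Among the 19 genes named in full, the log2 fold change changed sign 13 times. *Kmt2d* was at 0.0104 with the mouse number term, *Kdm5d* at -1.17 with the *Xist* term, and *Ehmt2* at 0.0937 with the GC and length offsets. *Kdm6a* was at 0.25 with the *Xist* term, 0.12 with the mouse number term and 0.14 without both libraries, and at -0.52 to 0.42 with 1 library left out (above 0 without wild-type 59). *Kdm4a* was at 0.0154 with library totals, 0.0461 with the *Xist* term, 0.16 with the mouse number term and 0.11 with the offsets, and at -0.22 to 0.0774 with 1 library left out (above 0 without homozygous mutant 43 or wild-type 59). In the libraries of mouse number 47 and lower alone, an alternative chosen after seeing the data, the log2 CPM difference of *Dot1l* was -0.75 (all libraries -1.5) and that of *Kdm5c* -0.82 (all libraries -1.03). The paper describes the wild-type mice as littermates, but litters are not given in the labels, so that no paired analysis was possible. Replicates differed far beyond counting error (chi-square of 103 to 242 per gene) with 3 mice per genotype, and 41 of the 51 genes had 100 or more reads in every library. The rest had fewer than 100 reads in 1 or more libraries, so that counting error was larger there. For *Setd1a*, *Prdm10*, *Setd4* and *Setd6* only homozygous mutant 46 was that low, with 22, 3, 11 and 21 reads. Their other libraries had 349 to 1489, 193 to 494, 123 to 557 and 620 to 1366 reads, in the same order of genes.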
